A study of Mus musculus with 7 samples.

Results

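The genes for translation initiation and elongation factors were examined for binding of Pygo2 and β-catenin by chromatin immunoprecipitation and sequencing (ChIP-seq) of mouse branchial arches taken 10.5 days post coitum. The branchial arches give rise to parts of the face and neck. The 71 genes are all protein-coding genes on a chromosome of the RefSeq table of GRCm38.p6 (mm10) whose symbol starts with Eif1 to Eif6, Eef1 or Eef2, out of 21887 such genes; 56 carry an Eif and 15 an Eef symbol. Some symbols of this kind belong to kinases, methyltransferases and binding proteins of the factors, and 53 of the 71 were counted by symbol as factor subunit genes.

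Of the series' 7 libraries, the peak lists of 2 were analysed, Pygo2 BA2 and β-catenin BA2, precipitated with antibodies that the labels describe as directed at the wild-type proteins. The input libraries are labelled as wild-type tissue, and no mutation or treatment is given for any library. The strain is not given in the sources used here, and neither is the difference between BA1 and BA2. Each list was called by the authors against the IgG BA1 library, made with pre-immune serum, per the file headers. The Pygo2 list held 7150 peaks from 15009636 tags and the β-catenin list 1079 peaks from 13672937 tags, with a mean of 15.5 tags per Pygo2 peak and 14.6 per β-catenin peak. Each list rests on 1 library, so no value below has a replicate error and no difference was tested. About 200 arches were cross-linked together with EGS and 1% formaldehyde, per the labels' protocols, and binding in few cells cannot be told apart from weak binding in many. The lists measure no expression; as a check of the tissue, Pygo2 peaks lay no more than 50 kb from 8 of 10 arch mesenchyme genes, 0 of 8 hepatocyte and 3 of 6 erythroid genes, against 45.8% of all protein-coding genes. At 1 kb these counts were 3 of 10, 0 of 8 and 1 of 6, against 16.5% of all genes. A β-catenin peak lay within 1 kb of none of these marker genes and within 50 kb of 1 of the 10 mesenchyme genes, against 10.9% of all genes.

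Translation starts when initiation factors load the small ribosomal subunit with the initiator tRNA, bring it to the capped end of an mRNA and let it scan to the start codon, where the large subunit joins. Elongation factors then deliver the aminoacyl-tRNAs and move the ribosome along the message. Every cell uses these proteins, and growing tissues such as the embryonic arches need them in large amounts. Pygo2 is a PHD-finger protein that joins the β-catenin complex on chromatin through Bcl9, and β-catenin carries the canonical Wnt signal to DNA-bound TCF/LEF factors. Myc, a target gene of that pathway in several tissues, encodes a factor that binds the E-box and is known for activating genes of protein synthesis.

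The annotated starts of 6 of the genes are shown first, because peaks of one or both proteins lay on them. Eif4b and Eef1a1 are the members with peaks of both lists within 1 kb, Eif5b and Eif4g1 have the Pygo2 peaks closest to a start, and Eif3f and Eef2k have β-catenin peaks there without a Pygo2 peak; the last pair was added after the values were seen. Each sequence is taken from RefSeq (GRCm38.p6), runs 5′ to 3′ on the strand of the gene and comprises 250 bases before the start and 25 from the start base on. Capitals mark the matches to a motif of the list below on either strand and, at Eif3f, the pyrimidine run at the start.
Eif4b, chr15:102073523-102073797, plus strand: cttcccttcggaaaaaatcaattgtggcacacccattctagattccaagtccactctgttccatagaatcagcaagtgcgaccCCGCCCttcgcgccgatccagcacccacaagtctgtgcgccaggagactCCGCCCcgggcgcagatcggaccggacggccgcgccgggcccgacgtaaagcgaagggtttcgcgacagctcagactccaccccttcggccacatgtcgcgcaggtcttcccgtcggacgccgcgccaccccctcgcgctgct
Eef1a1, chr9:78481700-78481974, minus strand: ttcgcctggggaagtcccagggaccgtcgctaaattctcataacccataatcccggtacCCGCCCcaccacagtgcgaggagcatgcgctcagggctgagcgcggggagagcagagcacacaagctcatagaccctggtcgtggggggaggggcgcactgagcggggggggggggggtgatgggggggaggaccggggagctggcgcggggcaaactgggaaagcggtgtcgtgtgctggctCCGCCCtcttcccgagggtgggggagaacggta
Eif5b, chr1:37997760-37998034, plus strand: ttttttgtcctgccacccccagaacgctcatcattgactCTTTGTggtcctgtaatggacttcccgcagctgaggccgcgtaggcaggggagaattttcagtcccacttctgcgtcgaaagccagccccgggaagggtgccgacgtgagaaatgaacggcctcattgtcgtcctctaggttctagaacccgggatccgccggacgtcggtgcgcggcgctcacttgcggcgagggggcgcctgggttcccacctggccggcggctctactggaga
Eif4g1, chr16:20672477-20672751, plus strand: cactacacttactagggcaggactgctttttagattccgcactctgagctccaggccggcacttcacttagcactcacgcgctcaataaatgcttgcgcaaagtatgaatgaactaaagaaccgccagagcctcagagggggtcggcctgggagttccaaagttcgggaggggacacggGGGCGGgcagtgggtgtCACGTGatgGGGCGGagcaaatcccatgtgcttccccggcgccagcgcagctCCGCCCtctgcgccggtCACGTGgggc
Eif3f, chr7:108934165-108934439, plus strand: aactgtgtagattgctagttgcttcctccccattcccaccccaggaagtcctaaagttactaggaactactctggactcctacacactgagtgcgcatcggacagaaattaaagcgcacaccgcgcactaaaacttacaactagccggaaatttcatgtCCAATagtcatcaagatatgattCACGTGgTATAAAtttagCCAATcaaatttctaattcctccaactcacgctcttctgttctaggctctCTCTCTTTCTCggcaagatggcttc
Eef2k, chr7:120842581-120842855, plus strand: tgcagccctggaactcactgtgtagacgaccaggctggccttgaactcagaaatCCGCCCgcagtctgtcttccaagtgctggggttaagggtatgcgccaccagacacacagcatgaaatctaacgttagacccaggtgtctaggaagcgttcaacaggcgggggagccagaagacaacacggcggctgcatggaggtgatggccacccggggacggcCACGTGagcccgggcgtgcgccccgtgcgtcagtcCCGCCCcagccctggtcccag

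The capitals at Eif4b and Eef1a1 are GC boxes, GGGCGG, which lie on the other strand and therefore read CCGCCC here. At Eif4g1 they are E-boxes, CACGTG, at -54 and at 15 from the start base, and GC boxes. At Eif3f they are an E-box at -68, a TATA box, TATAAA, at -61, CCAAT boxes at -91 and -50, and the run of pyrimidines that opens the transcript. Eef2k holds an E-box at -31 and GC boxes, and Eif5b only CTTTGT, a form of the TCF/LEF core, at -211. None of the matches overlapped another. The Pygo2 peak covered 158 bases of the 300-base window around the Eif4b start and the β-catenin peak 155 bases, whereas at Eef1a1 the Pygo2 peak covered 51 bases and the β-catenin peak 4.

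Pygo2 peaks lay at the ends of many translation factor genes. A peak centre within 1 kb of a gene end was found for 28 of the 71 genes (39.4%), against 16.5% of all protein-coding genes. Within 50 kb it was 49 of 71 (69.0%), against 45.8% of all genes. For β-catenin, 4 of 71 genes (5.63%) had a peak within 1 kb, against 2.01% of all genes, and 8 of 71 (11.3%) within 50 kb, against 10.9% of all genes. The β-catenin share was thus close to that of all genes in the wide window. The β-catenin count at 1 kb rests on 4 peaks, and among the earlier-listed 50% of the β-catenin peaks it was 1 of 71 (1.41%), against 1.09% of all genes. Peaks of both lists that overlapped by at least 1 bp were found at 1 member, Eif4b, in both windows (1.41%), where the share of all genes was 0.772% at 1 kb and 3.99% at 50 kb.

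**Figure D1:**
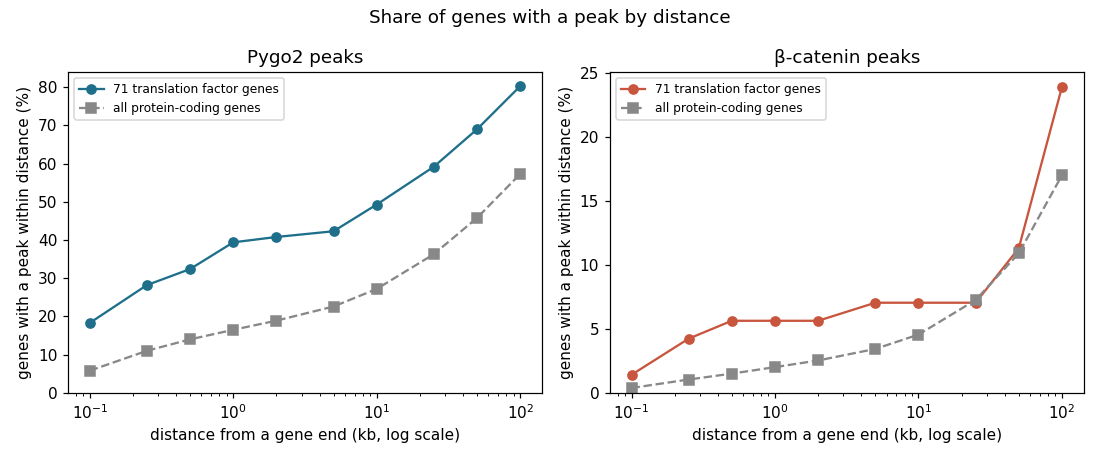
Share of genes with a peak centre within a given distance of a gene end (log scale, kb) for Pygo2 (left) and β-catenin (right); coloured lines are the 71 translation factor genes and grey dashed lines all 21887 protein-coding genes. The Pygo2 line of the translation factor genes runs above the grey line from 0.1 kb (18.3% against 5.80%) to 100 kb (80.3% against 57.3%), and the β-catenin lines are close at 25 kb (7.04% against 7.25%).

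The difference from all genes in the Pygo2 list was present close to the gene ends. Within 0.1 kb lay peaks of 13 members (18.3%, against 5.80% of all genes) and within 0.25 kb peaks of 20 (28.2%, against 11%). Between 1 kb and 5 kb only 2 members were added, Eif4a1 and Eif4ebp3, so that 42.3% had a peak within 5 kb, against 22.6% of all genes. The median distance to the nearest Pygo2 peak was 10.4 kb for the members and 64.7 kb for all genes, and to the nearest β-catenin peak 495 kb against 645 kb. The members had a median of 28.8 kb to their flanking genes in sum, against 43.1 kb for all genes, and the part of this closer spacing in the 50 kb shares was not tested. Next to the 1 kb limit, Eef1akmt2 was the farthest member inside it for Pygo2 (0.685 kb) and Eif4a1 the first outside (1.05 kb); for β-catenin these were Eef1a1 (0.331 kb) and Eif3d (2.24 kb). Next to the 50 kb limit they were Eif1 (46.2 kb) and Eif2ak3 (52.2 kb) for Pygo2, and Eif4g3 (37.2 kb) and Eif1ad (52.9 kb) for β-catenin.

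**Figure D2:**
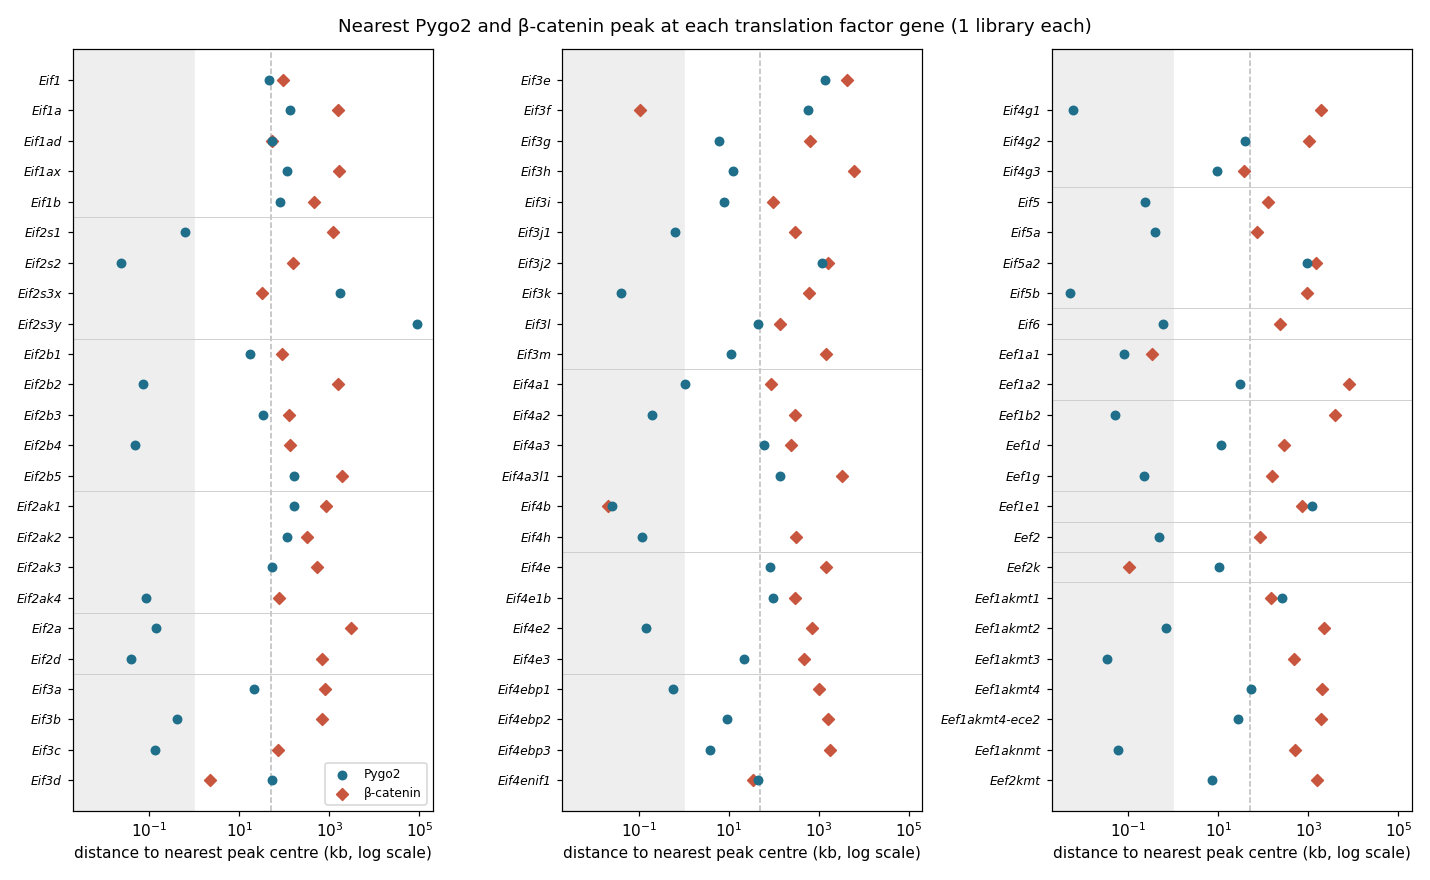
Distance from the nearest end of each of the 71 genes to the centre of the nearest Pygo2 (circles) and β-catenin (diamonds) peak, in kb on a log scale; grey bands cover distances up to 1 kb, dashed lines mark 50 kb, and horizontal lines separate the groups by role. Circles fall in the band for 28 genes and diamonds for 4, Eif3f, Eif4b, Eef1a1 and Eef2k; Eif2s3y has no diamond because no β-catenin peak lies on chromosome Y.

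The genes for the first steps of initiation differed among each other. Groups by role are small, and no difference between them was tested. Of all protein-coding genes, 16.5% had a Pygo2 peak and 2.01% a β-catenin peak within 1 kb. eIF1 and eIF1A hold the ribosome in its open state while it scans for the start codon, and none of the 5 genes with an Eif1 symbol had a peak of either protein within 1 kb; the nearest was a Pygo2 peak 46.2 kb from Eif1, which lay 596 bp from an end of Jup. Eif1a, Eif1ad, Eif1ax and Eif1b had none within 50 kb. eIF2 carries the initiator tRNA. Its α and β subunit genes had Pygo2 peaks, Eif2s2 at 0.024 kb and Eif2s1 at 0.617 kb, while the γ subunit genes on the sex chromosomes had no Pygo2 peak within 50 kb. Eif2s3x had a β-catenin peak 32.4 kb away, inside Klhl15. Eif2s3y was 89731 kb from the single Pygo2 peak of chromosome Y.

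eIF2B recharges eIF2 with GTP. Of its 5 subunit genes, Eif2b4 had a Pygo2 peak at 0.049 kb and Eif2b2 at 0.074 kb, Eif2b1 (17.5 kb) and Eif2b3 (33.8 kb) had one within 50 kb, and Eif2b5 had none. The eIF2 kinases shut initiation down under stress by phosphorylating eIF2α. Of their 4 genes only Eif2ak4, which encodes the amino acid sensor GCN2, had a peak, a Pygo2 peak at 0.084 kb. Eif2ak1, Eif2ak2 and Eif2ak3, for the heme-regulated kinase, PKR and PERK, had no peak of either list within 50 kb. Eif2a and Eif2d, whose products can deliver initiator tRNA without eIF2, each had a Pygo2 peak, Eif2a at 0.144 kb and Eif2d at 0.039 kb.

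eIF3 is the large complex that holds the small subunit, the mRNA and the other factors together. Of its 14 genes, 4 had a Pygo2 peak within 1 kb (28.6%, against 16.5% of all genes), and 10 within 50 kb (against 45.8% of all genes). These 4 were Eif3k (0.040 kb), Eif3c (0.137 kb), Eif3b (0.414 kb) and Eif3j1 (0.638 kb). Eif3f had its nearest Pygo2 peak 577 kb away and a β-catenin peak at 0.105 kb. Eif3d had its nearest Pygo2 peak at 53.5 kb and a β-catenin peak at 2.24 kb, inside Foxred2. Pygo2 peaks between 1 and 50 kb were found at Eif3g (5.96 kb), Eif3i (7.98 kb), Eif3m (11 kb), Eif3h (12.3 kb), Eif3a (21.0 kb) and Eif3l (44.4 kb); that of Eif3h lay inside the gene. At Eif3g, Eif3i, Eif3a and Eif3l the peak lay within 1 kb of an end of another gene. Eif3e and Eif3j2 had no peak of either list within 50 kb.

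The genes for cap recognition and unwinding included the only place within 50 kb of a member at which peaks of both lists overlapped. Eif4b encodes an RNA-binding cofactor of the helicase eIF4A (chromosome 15, 102073773 to 102097173). Its Pygo2 peak spanned 102073665 to 102073831 and its β-catenin peak 102073668 to 102073836, with 164 bp in common and centres 4 bp apart. The Pygo2 centre lay 25 bp and the β-catenin centre 21 bp upstream of the start. The Pygo2 peak stood at position 41 of its list, at 0.573% of the list, the earliest of all member peaks within 1 kb, and the β-catenin peak at 33.6% of its list. Another β-catenin peak lay 7.96 kb from Eif4b. Among the genes grouped here by an Eif4a symbol, Eif4a2 had a Pygo2 peak at 0.201 kb and Eif4a1 at 1.05 kb inside the gene. Eif4a3 and Eif4a3l1 had none within 50 kb. Eif4h, for another cofactor of eIF4A, had a Pygo2 peak at 0.116 kb.

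Eif4e, which encodes the cap-binding protein itself, had no peak of either list within 50 kb, the nearest being a Pygo2 peak at 83.1 kb. Of its relatives, Eif4e2 had a Pygo2 peak at 0.144 kb, Eif4e3 at 21.5 kb and the germline form Eif4e1b none within 50 kb. The 4E-binding proteins hold eIF4E inactive until mTOR phosphorylates them. Eif4ebp1 had a Pygo2 peak at 0.576 kb inside the gene, at 96.4% of the list, and Eif4ebp3 (3.81 kb) and Eif4ebp2 (9.20 kb) had one farther away; those of the last pair lay inside Sra1 and Nodal. Eif4enif1, for the transporter of eIF4E into the nucleus, had a Pygo2 peak at 45.2 kb inside Patz1 and a β-catenin peak at 34.7 kb inside Sfi1. The scaffold gene Eif4g1 had a Pygo2 peak 0.006 kb from its end. Eif4g3 had a Pygo2 peak at 9.15 kb and a β-catenin peak at 37.2 kb inside Ece1, and Eif4g2 a Pygo2 peak at 39.1 kb.

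The genes with an Eif5 symbol had Pygo2 peaks within 1 kb in 3 of 4 cases, against 16.5% of all genes. Eif5b, for the GTPase that joins the subunits, had one 0.005 kb from its end, the smallest distance of all members. Eif5, for the activator of the eIF2 GTPase, had one at 0.241 kb. Eif5a, for the hypusine-bearing factor that helps ribosomes past difficult peptide bonds, had one at 0.391 kb inside the gene, at -181 bp from its nearest annotated start, at 1.05% of the list, and with 8 Pygo2 peaks within 50 kb it had the most of any member. Its paralogue Eif5a2 had none, and its nearest Pygo2 peak was 917 kb away. Eif6, which keeps the large subunit from joining early, had Pygo2 peaks at 0.580 kb and 0.983 kb, which lay nearer to an end of BC029722.

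Among the elongation factors, eEF1A delivers the aminoacyl-tRNA, and its widely used gene Eef1a1 had peaks of both lists (chromosome 9, 78478453 to 78481724). The Pygo2 peak spanned 78481559 to 78481725, with its centre 82 bp downstream of the start, and the β-catenin peak 78481971 to 78482139, 331 bp upstream. They did not overlap, and their centres were 413 bp apart. Another β-catenin peak lay 45.8 kb from the gene. Eef1a2, the form of muscle and neurons, had its nearest Pygo2 peak at 30.9 kb, inside Ppdpf, and its nearest β-catenin peak 8119 kb away. The eEF1B complex recharges eEF1A. Eef1b2 had a Pygo2 peak at 0.050 kb, Eef1g at 0.222 kb and Eef1d at 11.7 kb, the last inside Pycrl. Eef1e1, whose product sits in the complex of tRNA synthetases, had none within 50 kb.

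Eef2 encodes the translocase, and Eef2k the kinase that inactivates it. The Pygo2 peak of Eef2 lay at 0.471 kb, past the 3′ end of the gene and 7 bp from an end of Dapk3, at 1.71% of the list. It was the only Pygo2 peak nearer to a 3′ end among the 24 member peaks within 1 kb whose strand was known. Eef2k (chromosome 7, 120842642 to 120907219) had its nearest Pygo2 peak at 10.4 kb, 149 bp from an end of Polr3e. Its β-catenin peak spanned 120842662 to 120842830, centred at -85 bp from the nearest annotated start. This centre lay inside the gene, 0.104 kb from its 5′ end, because the gene record begins upstream of its annotated starts. Of the 7 methyltransferase genes that modify eEF1A or eEF2, 3 had a Pygo2 peak within 1 kb, against 16.5% of all genes: Eef1akmt3 (0.033 kb), Eef1aknmt (0.059 kb) and Eef1akmt2 (0.685 kb). Eef2kmt had one at 7.12 kb and the readthrough gene Eef1akmt4-ece2 one at 26.8 kb, which is the peak of Eif4g1. Eef1akmt1 and Eef1akmt4 had none of either list within 50 kb.

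Within 50 kb, 44 of the 71 members had peaks of Pygo2 alone, 3 only a β-catenin peak (Eif3d, Eif3f and Eif2s3x), 5 had both and 19 had neither. The 5 with both were Eif4b, Eef1a1, Eef2k, Eif4enif1 and Eif4g3. Of the 49 members with a Pygo2 peak in this window, 22 had 1 peak and 27 had several. Of all protein-coding genes, 45.8% had a Pygo2 peak and 10.9% a β-catenin peak in this window. The split into alone, both and neither, and the number of peaks per gene, were not counted for all genes. The Pygo2 list was far longer than the β-catenin list, and when it was reduced to its 1079 first-listed peaks, a choice made after the data were seen, 5 members (7.04%) kept a peak within 1 kb, against 4.19% of all genes and beside 5.63% for β-catenin. These 5 were Eif4b, Eif5a, Eef2, Eif2b4 and Eif5. The headers do not state how the lists are sorted, so list position is no certain measure of peak strength.

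**Figure D3:**
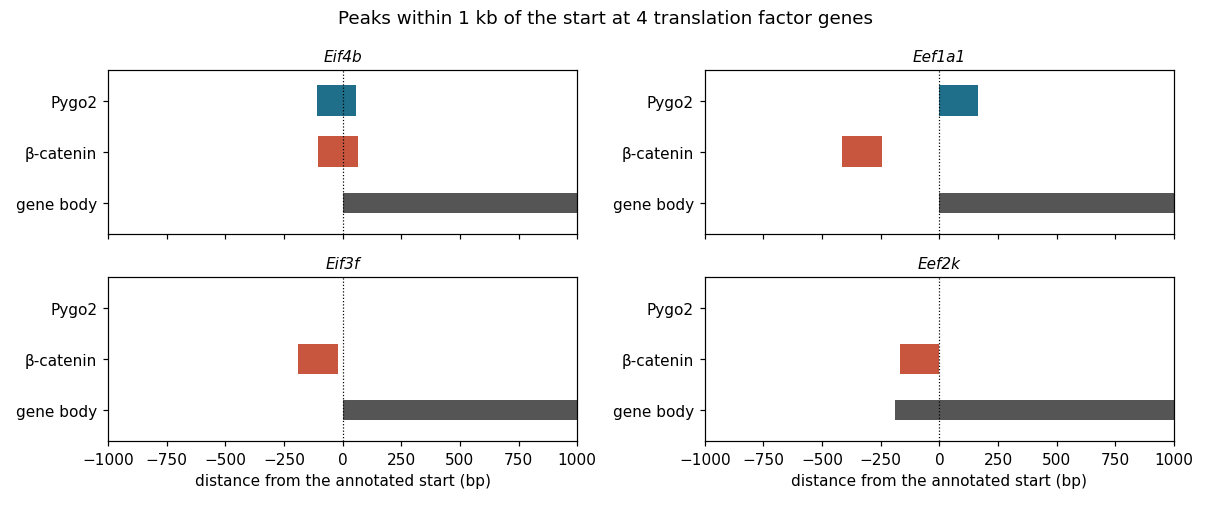
Peaks within 1 kb of the annotated start of Eif4b, Eef1a1, Eif3f and Eef2k, drawn to scale as distance from the start in bp along the strand of the gene, with Pygo2 above, β-catenin in the middle and the gene body at the bottom. The bars coincide at Eif4b (164 bp in common), lie apart at Eef1a1 (centres 413 bp apart), and at Eif3f and Eef2k a β-catenin bar alone is present. The gene body of Eef2k begins before the start used because its gene record begins upstream of all its annotated starts.

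Of the 24 Pygo2 peaks within 1 kb of a member with known strand, 23 lay nearer to the 5′ end, as did all 4 β-catenin peaks. The split between 5′ and 3′ ends was not counted for all genes. The RefSeq promoter windows gave a strand and at least 1 start for 55 of the 71 genes; Eif1a, Eif2b3, Eif3e, Eif3h, Eif3i, Eif3j2, Eif4e1b, Eif4e3, Eif4ebp1, Eif4ebp3, Eif4g2, Eif6, Eef1d, Eef1g, Eef1akmt1 and Eef1akmt3 had no entry. Of these 55, 23 (41.8%) had a Pygo2 peak centre within 1 kb of a start, against 17.3% of 17492 genes with an entry, and 4 (7.27%) a β-catenin peak, against 2.16%. The median offset of the 23 Pygo2 peaks was -50 bp, where negative means upstream, with quartiles at -191 and -9 bp; for all genes it was -69.5 bp. Downstream of the start lay 5 of the 23 (21.7%), against 36.3% for all genes: those of Eef1akmt2, Eif2b2, Eef1a1, Eif4h and Eif2a. All 4 β-catenin peaks lay upstream of the nearest annotated start, from -331 bp at Eef1a1 to -21 bp at Eif4b. Over all genes most did so as well, 252 of 383, with 34.2% downstream. The median of the 4 was -95 bp, where the median over all genes was -119 bp. The β-catenin peak of Eef2k was upstream of its annotated start but inside the gene as recorded.

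**Figure D4:**
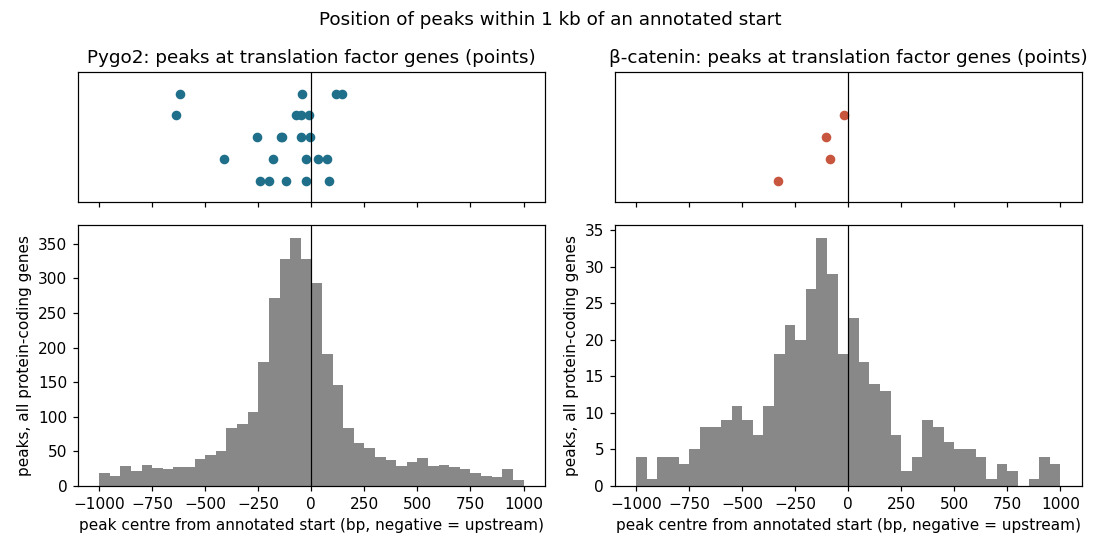
Position of peak centres relative to the nearest annotated start in bp (negative is upstream, the line marks the start), for Pygo2 (left) and β-catenin (right); points in the upper panels are peaks at translation factor genes, with no meaning to their height, and bars in the lower panels count peaks at all protein-coding genes in steps of 50 bp. The 23 Pygo2 points have their median at -50 bp, and the 4 β-catenin points lie between -331 and -21 bp.

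Several of these peaks also lay at another gene. Of the 29 Pygo2 peaks within 1 kb of a member, 11 also lay within 1 kb of an end of another protein-coding gene, and 6 lay nearer to that gene. For all Pygo2 peaks at gene ends, 20.3% lay at the ends of more than 1 gene. That share counts each peak once, whereas the 29 peaks were picked through a member gene. A peak at the ends of several genes is more readily picked in this way. The 11 of 29 therefore cannot be compared directly with the 20.3%. The peak of Eef1b2 was 50 bp from this gene and 41 bp from Ndufs1, a respiratory chain gene. The peak of Eif2b4 was 49 bp from it and 74 bp from Snx17, that of Eif2a 144 bp from it and 81 bp from Serp1, and that of Eif2s1 617 bp from it and 553 bp from Atp6v1d. The peaks of Eif3k (Map4k1), Eif5b (Txndc9), Eef1g (Tut1) and Eef1akmt3 (Mettl1) had the named neighbour within 1 kb but lay closer to the member. The 4 β-catenin peaks had no other gene end within 1 kb. When a peak counted for the closest gene alone, 23 members (32.4%) had a Pygo2 peak within 1 kb, against 14.0% of all genes, and 30 (42.3%) within 50 kb, against 22.0%.

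The member peaks were spread over the whole Pygo2 list. Their median position was at 30.3% of the list, and that of all Pygo2 peaks at gene ends at 35.2%. In the first 10% of the list stood 5 of the 29 peaks, those of Eif4b, Eif5a, Eef2, Eif2b4 and Eif5. In the last 10% stood 3, those of Eif2ak4 (94.1%), Eif4ebp1 (96.4%) and Eif2d (99.5%). Of the β-catenin peaks, those of Eif3f, Eef2k and Eef1a1 stood at 71.2%, 71.4% and 73.6% of the list, and that of Eif4b at 33.6%. Their median was 71.3%, later in the list than the 48.1% of all β-catenin peaks at gene ends.

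Letters of the starts were compared with those of other genes. Over the 55 members, a window of 300 bases held the E-box CACGTG in 15 (27.3%), against 8.91% of 17492 genes with a window and 13.6% of the 2192 genes with a Pygo2 peak in the window. The 15 were Eif1b, Eif3a, Eif3f, Eif3k, Eif4a1, Eif4e, Eif4g1, Eif4h, Eif5a, Eif5a2, Eef2, Eef2k, Eef1aknmt, Eef1akmt4 and Eef1akmt4-ece2, of which the last pair share a start. A Pygo2 peak overlapped a window holding the E-box at 5 of them, Eif3k, Eif4g1, Eif4h, Eif5a and Eef1aknmt. With or without the E-box, a Pygo2 peak overlapped a window at 19 of the 55 members, a similar share. The ETS motif CCGGAAG was in 17 (30.9%), against 12.9% of all genes and 27.1% of those with a Pygo2 peak. The GC box GGGCGG was in 41 (74.5%), against 49.2% and 73.0%. For ETS motif and GC box the 55 members, with or without a Pygo2 peak, were thus near the genes with a Pygo2 peak, and for the E-box above them. Among windows with a Pygo2 peak, counted singly, the E-box was in 6 of 22 member windows (27.3%), against 11.3% of all such windows. For the ETS motif these shares were 31.8% and 25.3%, and for the GC box 77.3% and 70.4%. None of these differences was tested. Overlapping windows of 1 gene were each counted here, so the same site can count more than once. The ETS site and the GC box of Eif4e2 each counted in 3 windows. An E-box and a GC box of Eif5a counted in more than 1 window. The TCF/LEF core, CTTTGA or CTTTGT, was in 9 members (16.4%), against 31.8% of all genes and 25.4% of those with a Pygo2 peak. Counts for CCAAT were 20 (36.4%, against 42.3% of all genes and 46.9% of those with a Pygo2 peak). For TATAAA the count was 5 (9.09%, against 14.8% and 8.12%), and for the CRE TGACGTCA 1, Eef2 (1.82%, against 2.54% and 3.97%). Among windows with a Pygo2 peak, these motifs were rarer in the members. The TCF/LEF core was in 2 of 22 member windows (9.09%, against 20.3%) and CCAAT in 5 (22.7%, against 41.5%). TATAAA (against 6.02%) and the CRE (against 3.55%) were in 0 of the 22. These differences were not tested either.

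All motifs were searched on both strands. A gene with several starts counted once, and no match says only that the letters are not in the window. Start base C followed by at least 4 pyrimidines, the 5′ TOP form known from mRNAs of the translation apparatus, was found for Eif3f and Eif2s3x (3.64%, against 2.67% of all genes), and a start annotated a few bases away would change this count. The median GC content was 61.8% in 70 windows of the members, against 56.3% in all 21263 windows. It was 62.3% in the 22 member windows with a Pygo2 peak and 61.0% in the 48 without. Over all 2394 windows with a Pygo2 peak it was 62%, near the value of the members.

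Other genes of protein synthesis had Pygo2 shares at 1 kb from 0 of 8 to 7 of 13 by list. Of 72 other genes of translation and its control, in 7 lists, 26 (36.1%) had Pygo2 peaks no more than 1 kb from an end and 5 (6.94%) β-catenin peaks, beside 39.4% and 5.63% for the factor genes. Over all protein-coding genes these shares were 16.5% and 2.01%, and most of the lists are small. In mTOR and cap control it was 7 of 13 for Pygo2, with Rps6kb2 (0.032 kb), Mlst8 (0.083 kb) and Tsc1 (0.148 kb) closest, and β-catenin peaks lay at Rps6kb1 (0.188 kb), an S6 kinase gene, and Akt1s1 (0.884 kb). Of the hypusine and diphthamide enzymes, which modify eIF5A and eEF2, 4 of 8 had a Pygo2 peak, with Dph1 (0.024 kb), Dohh (0.089 kb) and Dph2 (0.094 kb) closest, and Dph1 also a β-catenin peak at 0.159 kb. Cytosolic tRNA synthetases had one in 8 of 20 cases, among them Lars (0.009 kb), Yars (0.024 kb) and Vars (0.026 kb), and no β-catenin peak. For the integrated stress response it was 3 of 8: Ppp1r15b (0.042 kb), Trib3 (0.157 kb) and Atf4 (0.189 kb), and all 8 had one within 50 kb, where the share of all genes was 45.8%.

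For release and recycling it was 2 of 9 genes, Mcts2 (0.212 kb) and Pelo (0.671 kb), and Etf1, the gene for the release factor, had a β-catenin peak at 0.263 kb. Of poly(A) binding genes it was 2 of 6, Paip2 (0.101 kb) and Pabpc1 (0.490 kb). None of the 8 mitochondrial translation factor genes had a Pygo2 peak at that distance, while 6 of them had one within 50 kb (45.8% of all genes), and Gfm2 had a β-catenin peak at 0.101 kb. The gene groups most like the factors were the 88 cytosolic ribosomal protein genes, with a Pygo2 peak at 47 (53.4%) and a β-catenin peak at 7 (7.95%), the 78 mitochondrial ribosomal protein genes, with 30 (38.5%) and 6 (7.69%), and the 39 proteasome subunit genes, with 13 (33.3%) and 0. Beside these stand 16.5% of all genes for Pygo2 and 2.01% for β-catenin. Overlapping peaks within 1 kb were found at 1 of the 71 factor genes (1.41%), 4 of the 88 cytosolic ribosomal (4.55%), 2 of the 78 mitochondrial ribosomal (2.56%) and 0 of the 39 proteasome genes. The share of all genes was 0.772%. With 1 library per protein, no difference between these groups was tested.

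**Figure D5:**
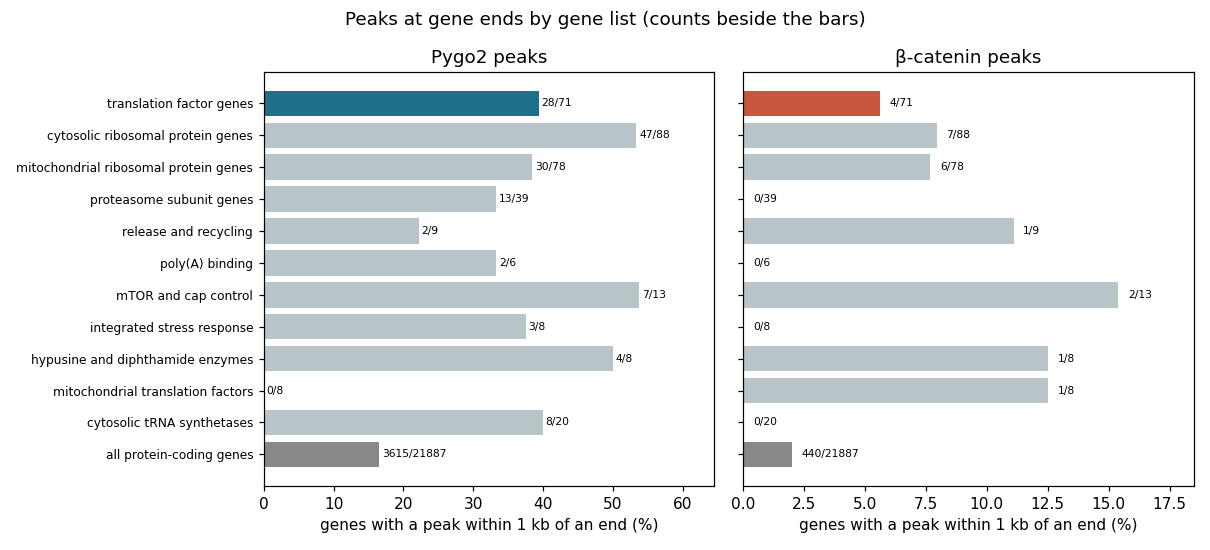
Share of genes with a Pygo2 (left) or β-catenin (right) peak centre within 1 kb of an end, by gene list, with the count beside each bar. For Pygo2 the translation factor genes (28 of 71) lie above all protein-coding genes (16.5%) and below the cytosolic ribosomal protein genes (47 of 88); lists of 20 genes or fewer give coarse shares.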

How the data were processed

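ChIP-seq peak lists of the Pygo2 BA2 and β-catenin BA2 libraries (1 library each, 10.5 days post coitum) were used. Of the 5 remaining libraries, IgG BA1 enters as the control of both lists and the others were not used here. Peaks were called by the authors with HOMER findPeaks in factor style against IgG BA1, per the file headers, although the names of the deposited lists mention IgG with BA2, at a false discovery rate of 0.001 and at least 2-fold over IgG and over the surrounding 10 kb, which required at least 10 tags for Pygo2 and 11 for β-catenin. Bowtie, Bowtie2, HOMER and mm10 are listed in the submitters' processing notes, without versions. The deposited score is 1 for every peak and every width in a list is equal (167 bp and 169 bp), so no strength per peak was used; tags in peaks were 0.740% and 0.116% of the libraries.

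Distances were taken between peak centres and the nearer gene end (RefSeq, GRCm38.p6) or to RefSeq promoter starts. Overlap meant at least 1 bp. Members and gene lists were chosen with earlier results of these data known. S6 kinase genes, pseudogene symbols, Rps19bp1 and Psmc3ip were left out of the ribosomal and proteasome lists. Every member was to be named; of other genes, those with a β-catenin peak within 1 kb and up to 3 nearest to a Pygo2 peak per list of other translation genes. Python 3.11.15, NumPy 2.4.6, pandas 2.3.3 and Matplotlib 3.10.9 were used, and the distance code was tested on simulated data. Other windows, gene assignments, list lengths and overlaps were tried.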

Additional observations from a re-analysis of the deposited data

How the results depend on the processing

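Of 53 recomputed counts, 42 stayed within 1.5 times the reported one. Many of the 42 are overlap counts that stayed at 1, through Eif4b alone, and so say little about stability. For Pygo2 the count within 1 kb was 23 at 0.5 kb (32.4%, against 14% of all genes) and 29 at 2 kb (40.8%, against 18.9%). Among the earlier-listed 50% of peaks it was 24 of 71 (33.8%, against 11.4% of all genes). Of the 53 factor subunit genes, 23 had a Pygo2 peak within 1 kb (43.4%, against 16.5% of all genes). The 1 kb count moved to 5 (7.04%, against 4.19% of all genes) with the Pygo2 list reduced to the length of the β-catenin list. The 50 kb count then moved to 12 (16.9%, against 14.0% of all genes). With nearest genes only the 50 kb count was 30 (42.3%, against 22% of all genes). For β-catenin the 1 kb count moved to 1 among the earlier-listed 50% (1.41%, against 1.09% of all genes). Its 50 kb count moved to 5 at 25 kb (7.04%, against 7.25%), 17 at 100 kb (23.9%, against 17.0%), 5 among the earlier-listed 50% (7.04%, against 6.31%) and 4 with nearest genes only (5.63%, against 3.68%). The overlap counts became 2 in each window with centres within 500 bp, where Eef1a1 joined Eif4b, and 5 at 100 kb. Overlaps under these settings were not counted for all genes. Fewer peaks or wider windows change these counts by construction. The β-catenin counts rest on few genes and peaks rest on a mean of 15.5 (Pygo2) and 14.6 (β-catenin) tags. No paired analysis was possible because each list rests on 1 library.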

Other observations

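The RefSeq table also holds 14 pseudogenes with a symbol of the same prefixes. None of them had a Pygo2 or β-catenin peak centre within 1 kb of an end; the nearest were 1.53 kb for Pygo2 and 101 kb for β-catenin. Reads from such copies can align to more than 1 place, and how the authors treated these is not given in the sources used here.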
